A study of Arabidopsis thaliana with 12 samples.

Results

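The core of the Arabidopsis circadian clock was examined as a group of 10 genes, taken from a fixed list of gene identifiers by a rule that uses no measured value, with earlier results of these data known, among 33685 transcripts that the 3 deposited tables share. Of these, 4 were listed as morning genes (CCA1, AT2G46830; LHY, AT1G01060; PRR9, AT2G46790; PRR7, AT5G02810) and 6 as evening genes (PRR5, AT5G24470; GI, AT1G22770; TOC1, AT5G61380; LUX, AT3G46640; ELF4, AT2G40080; ELF3, AT2G25930), after the time of day at which their mRNAs are known to peak. The seedlings were 10 days old, grown on vertical plates in long days without treatment, and pooled for poly(A) RNA sequencing with 3 libraries per line. All lines are in the Col-0 background. Col-0 itself is the wild type (WT). The line doa10a/b RNAi 4-2 combines a T-DNA insertion in AtDOA10A with an RNAi construct against AtDOA10B, both genes of DOA10-like ubiquitin ligases, and is a single transgenic line. The line amiNAA10 carries an artificial microRNA against NAA10, the catalytic subunit gene of the N-terminal acetyltransferase (NAT) complex NATA. The libraries labelled naa20 are of a mutant in NAA20, the catalytic subunit gene of NATB. The hour of harvest is not given in the sources used here.

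The clock is a loop of transcriptional repressors. CCA1 and LHY, a pair of related MYB factors made around dawn, repress the evening genes through a short sequence called the evening element. The pseudo-response regulators PRR9, PRR7, PRR5 and TOC1 are made one after another from morning to evening and repress CCA1 and LHY. ELF3, ELF4 and LUX form the evening complex, which represses PRR9 and other targets at night, and GI, a large protein of the afternoon, acts on the stability of TOC1 through the photoreceptor ZTL. Since the mRNAs of these genes rise and fall each day, a level from 1 harvest is a snapshot of the cycle.

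The stretches upstream of 5 members are shown, with the letters of known clock motifs in capitals. PRR5, TOC1 and LUX were taken because they carry the evening element. PRR9 was taken as the morning gene called lower than Col-0 of the RNAi table in all 3 lines, though its call in the RNAi line was not stable. ELF3 was taken as the member at 2-fold in amiNAA10 over both Col-0 references. Searched on both strands were the evening element AAAATATCT, the CCA1-binding site AAAAATCT, the G-box CACGTG and the LUX-binding sites GATACG and GATTCG. None of these overlapped another. The sequences are RefSeq, TAIR10.1, read 5′ to 3′ on the strand of the gene, and hold no base of an annotated exon.
PRR9, chr2:19232357-19232606, plus strand, with a pair of G-boxes and a LUX-binding site: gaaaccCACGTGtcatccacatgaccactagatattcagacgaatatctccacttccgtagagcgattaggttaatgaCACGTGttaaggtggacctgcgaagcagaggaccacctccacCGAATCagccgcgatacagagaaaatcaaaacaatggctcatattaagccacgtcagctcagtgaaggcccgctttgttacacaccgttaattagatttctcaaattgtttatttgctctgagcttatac
TOC1, chr5:24674713-24674962, plus strand, with an evening element: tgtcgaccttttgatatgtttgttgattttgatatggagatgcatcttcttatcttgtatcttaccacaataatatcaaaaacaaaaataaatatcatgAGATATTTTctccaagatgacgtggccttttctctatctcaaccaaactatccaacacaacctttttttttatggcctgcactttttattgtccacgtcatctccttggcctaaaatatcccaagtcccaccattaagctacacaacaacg
PRR5, chr5:8358697-8358846, minus strand, with a pair of evening elements and a CCA1-binding site: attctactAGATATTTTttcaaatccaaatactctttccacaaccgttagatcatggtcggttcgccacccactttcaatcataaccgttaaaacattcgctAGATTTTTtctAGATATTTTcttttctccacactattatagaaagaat
LUX, chr3:17182792-17183041, plus strand, with a G-box and an evening element: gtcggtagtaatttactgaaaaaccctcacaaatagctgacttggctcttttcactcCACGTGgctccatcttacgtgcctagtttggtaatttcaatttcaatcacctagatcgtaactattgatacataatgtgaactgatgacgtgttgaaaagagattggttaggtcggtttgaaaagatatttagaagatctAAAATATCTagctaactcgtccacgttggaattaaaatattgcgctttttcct
ELF3, chr2:11058694-11058943, plus strand, with a LUX-binding site: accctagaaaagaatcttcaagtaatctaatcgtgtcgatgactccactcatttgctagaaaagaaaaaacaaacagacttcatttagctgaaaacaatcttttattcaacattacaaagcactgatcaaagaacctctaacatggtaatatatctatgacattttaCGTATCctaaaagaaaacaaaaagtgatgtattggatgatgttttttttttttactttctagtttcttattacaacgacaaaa

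Within the 500 bases upstream of the start, the evening element was found in 3 of the 10 genes (PRR5, TOC1 and LUX), all of them evening genes, and in 4.44% of 27443 protein-coding genes. In PRR5 it lay 292 and 187 bases before the start, in TOC1 151 bases and in LUX 53 bases. The G-box, a site of light-regulated factors, was found in all 4 morning genes and in LUX, against 9.35% of all genes. The CCA1-binding site was found in LHY, PRR9 and PRR5 (12.5% of all genes), and a LUX-binding site in PRR9, TOC1, LUX, ELF4 and ELF3 (22.6% of all genes). A match is a description of letters and not a measured binding site.

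Each deposited table gives, for a line and for Col-0, the mean of 3 libraries in normalized counts, that is read counts divided by a size factor for the depth of the library. The RNAi table and the tables of amiNAA10 and naa20 (the NAT tables) hold different Col-0 libraries, and the paper's data statement places those of the NAT tables in another series. These are used here only as the authors' mean, as a second reference. Because a mean of 3 normalized counts is built from whole reads, the counts of the single libraries were worked back from it for all but 1 of the expressed transcripts of the RNAi table with means up to 12000 and for 79.8% and 81.9% of those in amiNAA10 and naa20, with none above a mean of 2000 in the NAT lines. CCA1 and LHY in both NAT lines therefore have only a mean. So has PRR7 in amiNAA10, where more than 1 set of whole counts fitted. Of the amiNAA10 transcripts with means from 500 to 2000, 58.8% were recovered. The means of a line sum to between 20338996 and 21639703 normalized counts in the lines of the series. Over 12040 transcripts Pearson's r between log2 values of libraries within a line was 0.962 to 0.985. The targeted genes were NAA10 at 107 in amiNAA10 against 885 in Col-0, AtDOA10A at 841 against 2272 and AtDOA10B at 511 against 282 in the RNAi line, and NAA20 at 635 in naa20 against 263, so that the last is named by its label only. AtDOA10B and NAA20 were higher, not lower, in the lines that target them. All values below are on the scale of the RNAi table, to which the NAT lines were brought by the median ratio (log2 shifts of -0.207 and -0.0992), unless a sentence says otherwise. Ratios and differences are on the log2 scale with 1 normalized count added, over transcripts with an average of at least 10 in the lines compared, and a ratio of means was called at 2-fold and a difference of libraries at an adjusted p under 0.05. Libraries are listed from low to high, since the recovered counts carry no replicate number.

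In Col-0 of the RNAi table the morning genes were the most abundant. Per kilobase of exon, CCA1 had a level of 2197 normalized counts (2155 to 2269 over 3 libraries) and LHY of 2019 (1822 to 2287), which overlapped. PRR9 followed at 386 and PRR7 at 338, then GI at 166, ELF4 at 158, ELF3 at 108, TOC1 at 103, LUX at 44.8 and PRR5 at 23.5. In this order the libraries of GI and ELF4, of ELF4 and ELF3, and of ELF3 and TOC1 overlapped as well, and the other neighbours were separate.

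**Figure D1:**
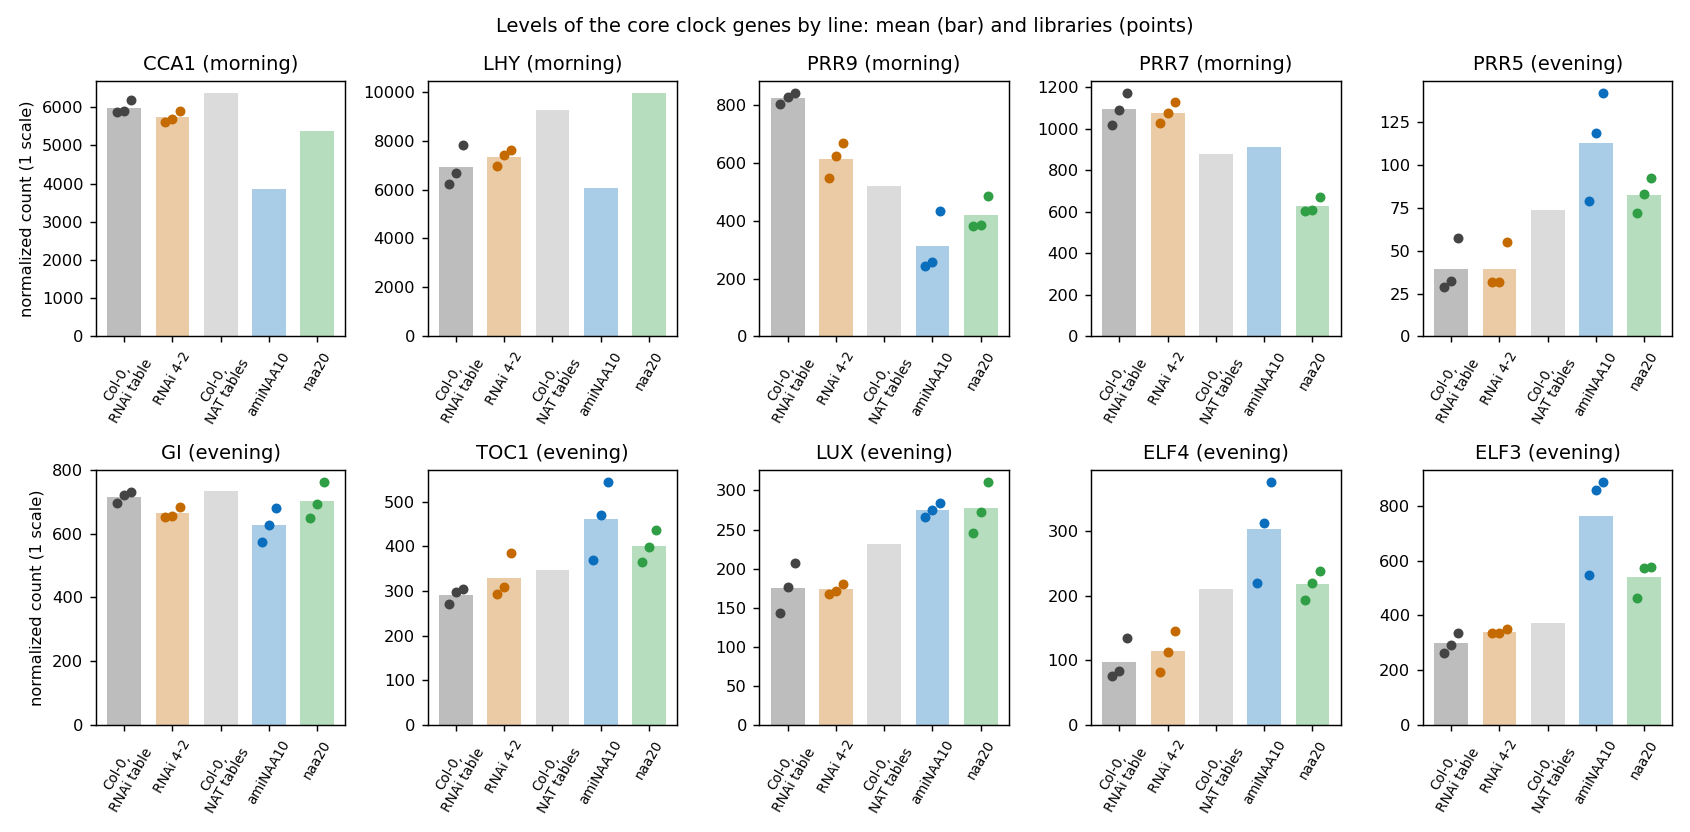
Levels of the 10 core clock genes in normalized counts on 1 scale (y axes start at 0), by line; bars are the mean of 3 libraries and points are single libraries where they could be recovered. PRR9 stepped down from 825 in Col-0 of the RNAi table to 312 in amiNAA10, while ELF3 stood at 298 and 764.

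In doa10a/b RNAi 4-2 the clock genes stood close to Col-0, and PRR9 was the single member past the test. CCA1 was at 5620, 5699 and 5909 in the RNAi line and at 5866, 5894 and 6176 in Col-0. LHY was at 6973, 7409 and 7631 against 6234, 6666 and 7824. For both dawn genes the lines overlapped, with log2 differences of -0.06 (SE 0.06, adjusted p = 0.67) and 0.09 (SE 0.08, adjusted p = 0.637) by limma, a linear model across all transcripts with Benjamini-Hochberg adjustment.

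PRR9, the first of the regulators made in the morning, was at 548, 623 and 670 in the RNAi line and at 805, 828 and 842 in Col-0. Every RNAi library was below every Col-0 library, and PRR9 fell by a log2 difference of -0.43 (SE 0.08, limma adjusted p = 0.0201). Of all transcripts 1.14% were called lower and 1.13% higher, so 1 of 10 members lower is a small count. The call was lost without any 1 of 3 libraries, with an adjusted p of 0.091 without the Col-0 library of size factor 1.1 and of 0.0694 and 0.11 without the RNAi libraries of size factors 1.03 and 1.01, and with all 12 libraries in 1 fit (0.141).

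PRR7 was at 1027, 1073 and 1127 against 1019, 1090 and 1170 in Col-0, which overlapped. Among the evening genes, GI was at 652, 656 and 683 against 696, 722 and 729, separate but not past the test (-0.11, SE 0.06, limma adjusted p = 0.423). The log2 differences of the other 5 lay between -0.00 for LUX and 0.22 for ELF4, and none of the 6 evening genes passed limma (0 at an unadjusted p under 0.05). No member reached a 2-fold ratio of means, where 0.772% of 20086 transcripts did.

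In amiNAA10, PRR9 was lower and 5 of the 6 evening genes were higher than in Col-0 of the RNAi table. The paper relates amiNAA10 to the other Col-0 libraries, so these differences and p-values are not those of the line alone. ELF3, the scaffold of the evening complex, was at 547, 859 and 887 against 263, 293 and 337 in Col-0. ELF4, a small partner of ELF3, was at 219, 313 and 376 against 75.5, 84.2 and 134. PRR5 was at 79, 119 and 142 against 29, 32.3 and 57.2. No library of these genes overlapped Col-0, and the log2 differences were 1.33 for ELF3 (SE 0.16, limma adjusted p = 1.50e-04), 1.63 for ELF4 (SE 0.22, adjusted p = 3.34e-04) and 1.52 for PRR5 (SE 0.27, adjusted p = 0.00165).

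LUX, the DNA-binding member of the evening complex, was at 266, 275 and 284 against 144, 176 and 207. TOC1, the evening regulator, was at 370, 470 and 544 against 271, 297 and 304. They rose less than the other evening genes that passed, by 0.66 (SE 0.13, limma adjusted p = 0.00253) and 0.65 (SE 0.12, adjusted p = 0.00248). GI was the exception among the evening genes, with 573, 626 and 679 against 696, 722 and 729 and a difference of -0.20 that did not pass (SE 0.08, limma adjusted p = 0.0669). It passed without the amiNAA10 library of size factor 1.11 (adjusted p = 0.0306) and with all 12 libraries in 1 fit (0.0409), but without the median scaling its difference was 0.01 (adjusted p = 0.931), so that no direction is given for GI.

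PRR9 was at 244, 258 and 434 in amiNAA10 against 805, 828 and 842 in Col-0. It fell by a log2 difference of -1.45 (SE 0.17, limma adjusted p = 1.21e-04). Of the 7 members that could be tested, 5 were thus higher and 1 lower, where 15.2% of 15396 tested transcripts were called higher and 17.2% lower. Without the median scaling 79.3% of all calls, against 47% with it, were higher. CCA1, with a mean of 3855 against 5979, had a log2 ratio of means of -0.63, LHY (6065 against 6908) of -0.19 and PRR7 (910 against 1093) of -0.26, with no test. Without scaling these ratios were -0.43, 0.02 and -0.06, so the sign of LHY depends on it.

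In the libraries labelled naa20, 5 of the 6 evening genes were higher and PRR9 and PRR7 lower than in Col-0 of the RNAi table. As for amiNAA10, this is not the Col-0 that the paper relates to naa20, and the p-values are not those of the line alone. ELF3 was at 465, 573 and 577, ELF4 at 194, 220 and 238 and PRR5 at 72, 83 and 92.7. None of these overlapped Col-0, and they rose by 0.85 (SE 0.11, limma adjusted p = 1.10e-04), 1.18 (SE 0.18, adjusted p = 4.93e-04) and 1.10 (SE 0.24, adjusted p = 0.00508). LUX was at 246, 273 and 311 and TOC1 at 365, 398 and 436. They rose by 0.66 (SE 0.14, adjusted p = 0.0032) and 0.46 (SE 0.09, adjusted p = 0.00303) by limma.

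PRR9 was at 384, 387 and 487 in naa20 and PRR7, which acts beside it, at 604, 609 and 669, against 1019, 1090 and 1170 for PRR7 in Col-0. Both were below every Col-0 library and fell by -0.98 (SE 0.09, limma adjusted p = 8.96e-06) and -0.80 (SE 0.07, adjusted p = 8.58e-06). GI, at 648, 692 and 762, overlapped Col-0 (-0.03, SE 0.07, adjusted p = 0.781). Of the 8 members tested 5 were higher and 2 lower, where 11.2% of 15704 transcripts were called higher and 14.3% lower. Unscaled, 65.5% of all calls were higher, against 43.9% with the median scaling. LHY, with a mean of 9934 against 6908, had a log2 ratio of means of 0.52, and CCA1 (5372 against 5979) of -0.15, with no test. Between the Col-0 references these ratios were already 0.42 for LHY and 0.09 for CCA1.

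**Figure D2:**
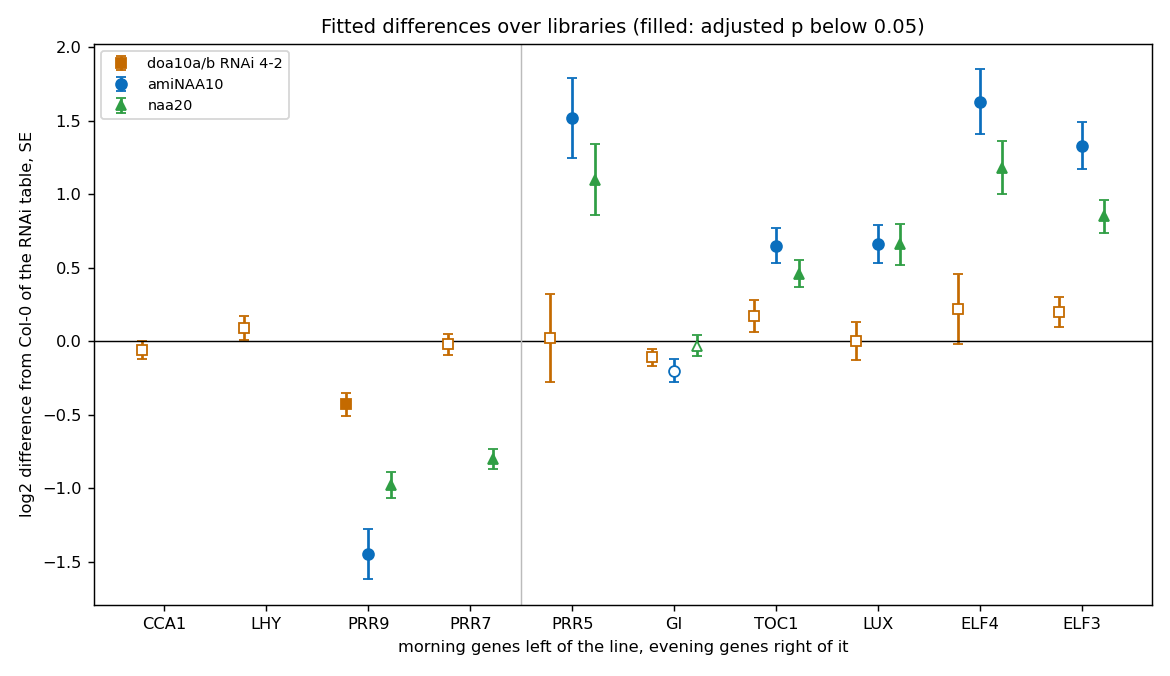
Log2 difference of each line from Col-0 of the RNAi table over libraries, with its SE as bars (3 libraries a line); filled symbols have a limma adjusted p below 0.05 over all transcripts tested. ELF4 lies at 1.63 in amiNAA10 and 1.18 in naa20, and PRR9 at -1.45 and -0.98.

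The NAT lines and Col-0 of the RNAi table belong to the same series but stand in tables that were normalized separately. The paper relates the NAT lines to the other Col-0 libraries. Line, table and set of libraries therefore cannot be told apart in these differences, nor in their p-values. The Col-0 of the NAT tables, itself wild type, already stood apart from the other Col-0 in the clock genes. Its means were 210 against 98 for ELF4 (log2 ratio 1.09), 74 against 39.5 for PRR5 (0.89), 232 against 175 for LUX (0.40), 373 against 298 for ELF3 (0.32) and 348 against 291 for TOC1 (0.26). GI was at 732 against 716 (0.03). PRR9 was at 520 against 825 (-0.67), PRR7 at 879 against 1093 (-0.31), LHY at 9253 against 6908 (0.42) and CCA1 at 6363 against 5979 (0.09). ELF4 was the 1 member at least 2-fold apart, where 2.38% of 20129 transcripts were. These are ratios of the authors' means with no test.

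Over the Col-0 of their own tables the NAT lines were closer to wild type in PRR9, PRR7 and the evening genes other than GI, but not in CCA1 or GI, and for LHY in naa20 alone. In amiNAA10 the authors' means, on the scale of that table, were 882 against 431 for ELF3 (log2 ratio 1.03), 131 against 85.5 for PRR5 (0.61), 349 against 243 for ELF4 (0.52), 533 against 402 for TOC1 (0.41) and 317 against 268 for LUX (0.24). PRR9 had 360 against 601 (-0.74), CCA1 4449 against 7352 (-0.72), LHY 6999 against 10692 (-0.61), GI 722 against 846 (-0.23) and PRR7 1051 against 1016 (0.05). ELF3 was the single member at 2-fold, where 5.51% of 20271 transcripts were. The median over the 4 morning genes was -0.67 and over the 6 evening genes 0.46, beside 0.00 over all transcripts.

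In naa20, over the same Col-0 libraries and on the scale of its table, ELF3 had a mean of 577 against 400 (log2 ratio 0.53), LUX 296 against 249 (0.25) and TOC1 428 against 373 (0.20). PRR5 (0.16), ELF4 (0.05) and GI (-0.07) stood near this Col-0. PRR7 had 672 against 943 (-0.49), PRR9 449 against 558 (-0.31), CCA1 5755 against 6823 (-0.25) and LHY 10641 against 9923 (0.10). No member reached 2-fold, where 1.68% of 20155 transcripts did. The medians were -0.28 over the morning genes and 0.18 over the evening genes, beside -0.00 over all.

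Over Col-0 of the RNAi table, 4 members were at least 2-fold apart in amiNAA10 (ELF4, PRR5 and ELF3 higher, PRR9 lower), where 4.16% of transcripts were, and 2 in naa20 (ELF4 and PRR5 higher), where 4.49% were. The choice of reference thus set most of the count of members at 2-fold, ELF3 in amiNAA10 being the member at 2-fold over both. PRR9 was below both references in both lines, and ELF3, PRR5, TOC1, LUX and ELF4 above both, in naa20 by as little as 0.05 for ELF4. Since each pair of ratios shares the mean of the NAT line, this is a side-by-side description.

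**Figure D3:**
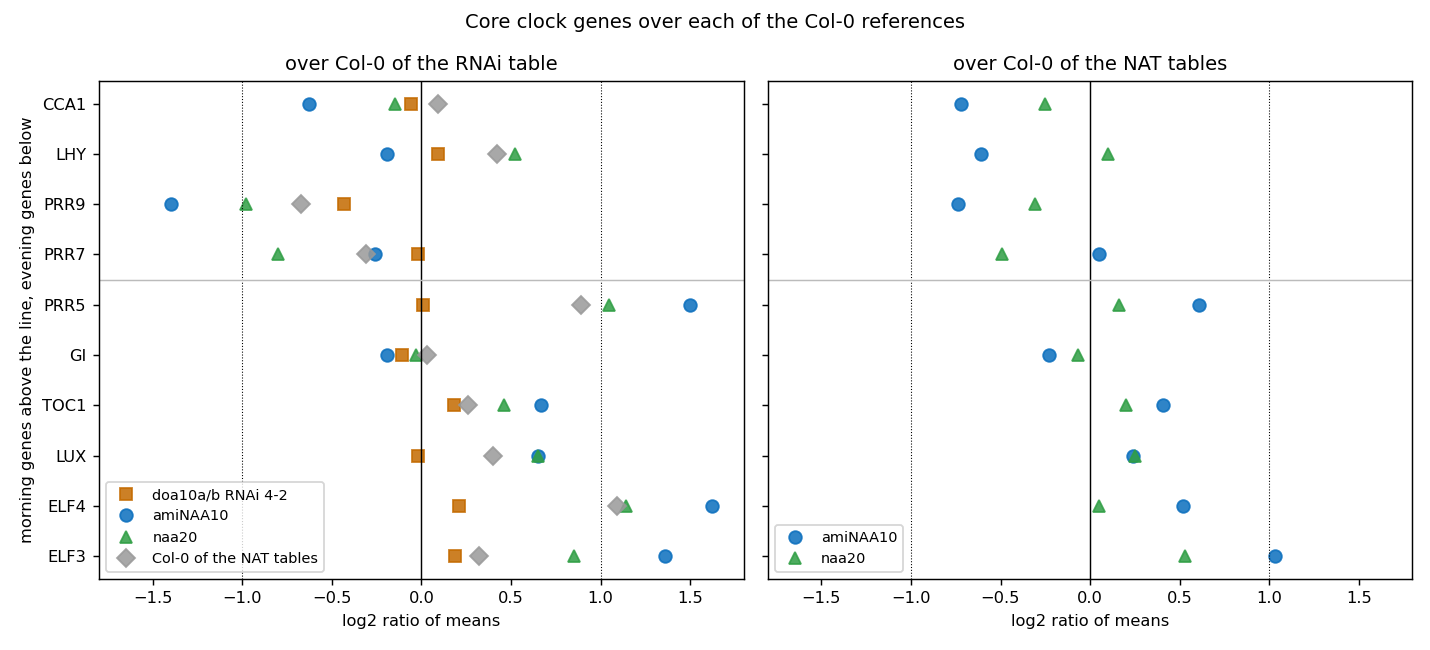
Log2 ratio of means of the core clock genes over Col-0 of the RNAi table (left) and over Col-0 of the NAT tables (right); dotted lines mark 2-fold. On the left the second Col-0 (grey) lies on the side of the NAT lines for ELF4 (1.09), PRR5 (0.89) and PRR9 (-0.67), and on the right amiNAA10 has 1.03 for ELF3 and -0.74 for PRR9.

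A comparison of amiNAA10 with naa20 has no Col-0 library in it, but the lines again stand in separately normalized tables. They were put on 1 scale through Col-0 of the RNAi table. ELF3 was higher in amiNAA10 by a log2 difference of 0.48 (SE 0.13, limma adjusted p = 0.00898), ELF4 higher by 0.44 (SE 0.15, adjusted p = 0.0224) and PRR9 lower by -0.47 (SE 0.16, adjusted p = 0.026). For all 3 genes the libraries of the lines overlapped. Of the 7 members tested, 2 were higher and 1 lower, where 21.1% of 15055 transcripts were called higher and 19.3% lower, a share near that of all transcripts. Without scaling 69.2% of all calls were higher, against 52.2% with it. PRR5 (0.42), TOC1 (0.19), GI (-0.16) and LUX (-0.00) did not pass. Which members passed depended on the scaling, since without it PRR9 did not pass (-0.36, limma adjusted p = 0.0757) and PRR5 (0.52, adjusted p = 0.0315) and TOC1 (0.30, adjusted p = 0.038) did. With all 12 libraries in 1 fit ELF4 did not pass (adjusted p = 0.117).

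The overlap came from 1 library. The amiNAA10 library of size factor 1.11 had the highest PRR9 of its line (434, against 244 and 258) and the highest GI (679), and the lowest ELF3 (547, against 859 and 887), ELF4 (219), PRR5 (79), TOC1 (370) and LUX (266). Over all transcripts its r with the other libraries of its line was 0.979 and 0.976, and theirs with each other 0.985. Without it 6 members differed between amiNAA10 and naa20, PRR5 (0.66), TOC1 (0.34) and GI (-0.22) joining ELF3, ELF4 and PRR9. Of all transcripts 5996 of 15052 were then called. Since this library was singled out by its values in these same members, the larger count is a description only. Without either of the other amiNAA10 libraries, or without the naa20 library of size factor 0.989, no member passed limma. The lowest adjusted p was 0.0741, 0.0523 and 0.058, with 1, 2 and 2 members at an unadjusted p under 0.05. Of all transcripts 5048 of 15061, 5082 of 15071 and 5246 of 15048 were called in these fits.

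The members were also summed up in an index, the mean log2 level of the 4 morning genes minus that of the 6 evening genes within a line, which does not depend on the scaling between tables beyond the pseudocount. From the means it was 3.72 in Col-0 of the RNAi table, 3.53 in doa10a/b RNAi 4-2, 3.10 in Col-0 of the NAT tables, 2.68 in naa20 and 2.16 in amiNAA10. The libraries gave 3.65, 3.74 and 3.83 in Col-0 of the RNAi table and 3.33, 3.55 and 3.76 in the RNAi line, which overlapped. The index of the Col-0 references differed by -0.62, and that of amiNAA10 and naa20 from Col-0 of the NAT tables by -0.94 and -0.42, with no spread over libraries to set beside them. The SD over libraries, pooled over Col-0 of the RNAi table and the RNAi line alone, was 0.17. No p is given for this score over members.

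For all 12 libraries the index can be written with PRR9 as the only morning gene. It was 2.04, 2.15 and 2.29 in Col-0 of the RNAi table and 1.45, 1.55 and 1.93 in the RNAi line. In naa20 it was 0.25, 0.38 and 0.78, and in amiNAA10 -0.64, -0.59 and 0.56, the last in the library of size factor 1.11. The mean of Col-0 of the NAT tables gave 0.97, between the RNAi line and the NAT lines.

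**Figure D4:**
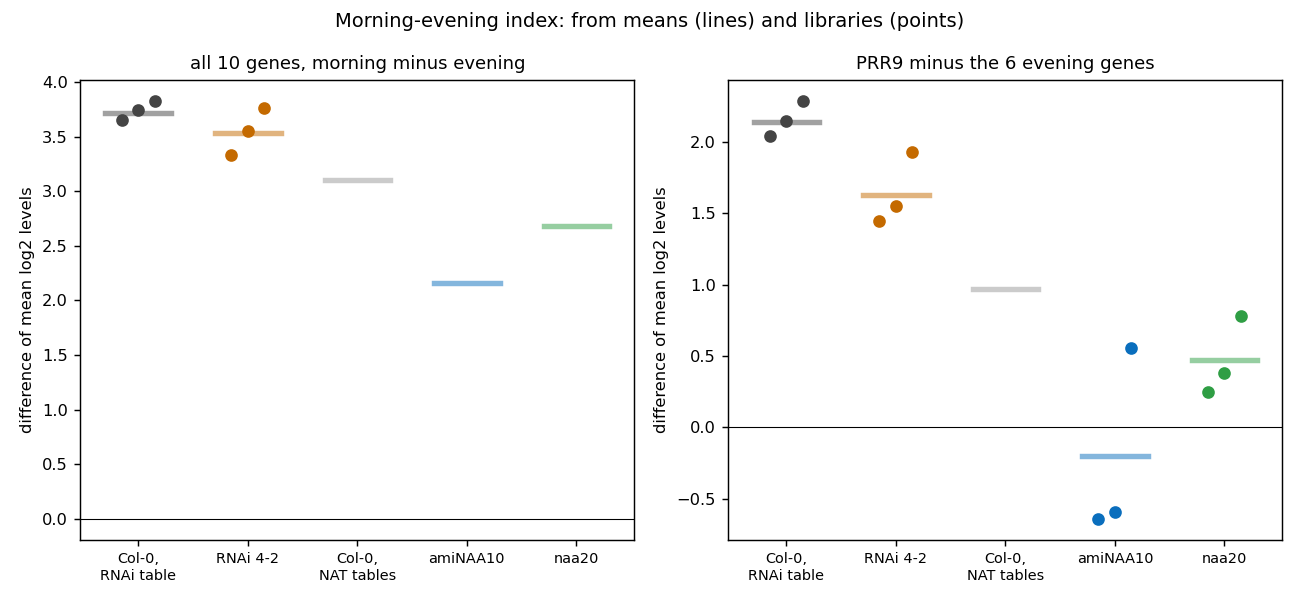
Morning-evening index as a difference of mean log2 levels, from all 10 genes (left) and from PRR9 with the 6 evening genes (right); lines are from the means and points are libraries. On the right the Col-0 libraries lie between 2.04 and 2.29, and 1 amiNAA10 library lies at 0.56 with the others at -0.64 and -0.59.

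Of 31 other clock components, 29 were tested in doa10a/b RNAi 4-2 and 0 passed limma (1 at an unadjusted p under 0.05). At 2-fold between means there was none, where 0.772% of all transcripts were. In amiNAA10 over Col-0 of the RNAi table, 5 of 21 tested were higher and 4 lower, where 15.2% and 17.2% of all transcripts were. In naa20 4 of 24 were higher and 2 lower, where 11.2% and 14.3% of all were. These limma counts are close to the shares over all transcripts. At 2-fold between means over the same Col-0, 5 of the 31 were higher and 2 lower in amiNAA10, where 4.16% of all transcripts were apart. In naa20 4 were higher and 1 lower, where 4.49% were apart. PRR3, a relative of TOC1, was at 67.2, 163 and 229 in amiNAA10 and at 128, 145 and 159 in naa20 against 20.4, 21.7 and 36.3 in Col-0. It rose by 2.38 (SE 0.37, limma adjusted p = 7.83e-04) and 2.46 (SE 0.22, adjusted p = 7.25e-06). JMJD5, a histone demethylase gene with an evening peak, rose by 1.81 and 2.11. FKF1, a blue-light receptor of photoperiodic flowering, rose by 1.67 and 1.63 at low means of 24.5 and 23 against 7.25. RVE2, a relative of CCA1, had a mean of 1035 in amiNAA10 (log2 ratio of means 2.50, with no test) and rose in naa20 by 1.37 by limma.

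PRR3 (log2 ratio 1.42), JMJD5 (1.12) and FKF1 (1.83) were again higher in Col-0 of the NAT tables than in the other Col-0. They were the only 3 of the 31 at 2-fold between these references, where 2.38% of all transcripts were. FKF1, at a mean of 28.2 in Col-0 of the NAT tables, stood above both NAT lines there. Over Col-0 of the NAT tables, 4 of the 31 were at 2-fold in amiNAA10, all higher, where 5.51% of all transcripts were apart in either direction. These were RVE2 (2.00), BOA (1.29), a relative of LUX, RVE1 (1.26), a factor of auxin and growth rhythms, and PRR3 (1.09). None was at 2-fold in naa20, where 1.68% of all transcripts were. In the amiNAA10 library of size factor 1.11, PRR3 was at 67.2 and JMJD5 at 49.3, the lowest of the line in each.

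Among 23 clock output genes, 5 of 17 tested had an unadjusted p under 0.05 by limma in doa10a/b RNAi 4-2, with no share over all transcripts beside it. After adjustment 1 passed, where 1.14% of all transcripts were called lower and 1.13% higher. This was CAT3, a catalase gene, at 4471, 4492 and 5534 against 6856, 6967 and 7068 (-0.53, SE 0.08, limma adjusted p = 0.00845), named after its value was seen. CDF5, a repressor of flowering genes, had a 2-fold ratio of means there (17.2 against 6.47, log2 ratio 1.29) but did not pass. Over Col-0 of the RNAi table, 1 of 7 tested outputs was higher and 3 lower in amiNAA10 (15.2% and 17.2% of all transcripts), and 2 of 7 were higher and 1 lower in naa20 (11.2% and 14.3% of all). In naa20 PIF4, a growth-promoting factor, was at 448, 484 and 558 against 915, 1009 and 1187 and fell by -1.06 (SE 0.10, limma adjusted p = 1.15e-05). CO, the flowering regulator, rose by 1.22 (SE 0.36, adjusted p = 0.0243) at low levels of 24.5 to 31.6 against 6.05 to 16.3. No output was at 2-fold over Col-0 of the NAT tables in either NAT line, where 5.51% of all transcripts were in amiNAA10 and 1.68% in naa20.

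Over the 5 means, 16223 annotated genes with means of at least 50 in each were compared with the profiles of the members. The profile of CCA1 and LHY was lowest in amiNAA10 (-0.42 on the centred log2 scale) and highest in Col-0 of the NAT tables (0.25). AT3G44670, AT1G56500, PDE334, PARVUS and AT5G15740 were nearest to it, with root mean square differences in log2 of 0.0172 to 0.0243. This profile is an average of genes that parted in naa20, with log2 ratios over Col-0 of the RNAi table of 0.52 for LHY and -0.15 for CCA1. The profile of the evening genes went from -0.44 in Col-0 of the RNAi table to 0.49 in amiNAA10. AT4G19390, Cpn60beta4, AT5G23575, LPR1 and AT4G18205 were nearest to it, with differences of 0.0363 to 0.0621. Nearness over 5 means among 16223 genes was not tested and is a description only.

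The markers of shoot tissue moved with the lines as well. The summed level of RBCS1A, RBCS3B, LHCB2.1 and PSBO1 was 526288 in Col-0 of the RNAi table, 523625 in the RNAi line, 507083 in Col-0 of the NAT tables, 445180 in naa20 and 322073 in amiNAA10, each of the 4 being lowest in amiNAA10. The sum of the root markers EXPA7, COBL9, RHD2 and PHT1;1 was 4716 in Col-0 of the RNAi table and between 3121 and 3423 in the other lines and Col-0. Most of this sum was the phosphate transporter gene PHT1;1, at 3841 in Col-0 of the RNAi table and at 2316 to 2711 elsewhere. Of the root hair genes, EXPA7 and COBL9 were higher in amiNAA10 than in naa20 (limma adjusted p = 9.71e-07 and 9.14e-04). RHD2 did not differ between them (0.10, adjusted p = 0.419). EXPA7 was at 292 in amiNAA10 and 125 in naa20 against 231 in Col-0 of the RNAi table, COBL9 at 157 and 99.9 against 178, and RHD2 at 355 and 332 against 466. By limma all 3 were lower in naa20 than in Col-0 of the RNAi table (adjusted p = 0.00199, 0.00201 and 0.00468), and in amiNAA10 RHD2 alone was (0.0137). Col-0 of the NAT tables had means of 233 for EXPA7, 141 for COBL9 and 339 for RHD2, with no test. RHD2 in both NAT lines thus stood near this Col-0, and COBL9 in amiNAA10 above it, while EXPA7 and COBL9 in naa20 were below it. PHT1;1 was lower in the RNAi line (adjusted p = 0.00631) and was not tested in the NAT lines. None of these defining markers was at 0 in any line, and the part of tissue makeup in the clock differences was not tested. In pooled whole seedlings, fewer cells of a type and less RNA per cell cannot be told apart.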

How the data were processed

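The authors' deposited tables hold signal values, the mean over 3 libraries of gene counts divided by size factors. Reads were aligned to TAIR10 with TopHat2 2.0.12 on Bowtie2 2.2.3, counted with HTSeq 0.6.1 and tested with DESeq 1.18.0 according to the submitters' notes on processing. The paper gives another aligner, HISAT2, and other tests. The tables' columns of fold changes, p-values, adjusted p-values and calls are the authors' comparisons and were not used. The 2 Col-0 columns of the NAT tables belong to libraries of another series. They agree in proportion (ratio 1.07681 to 1.07786 over 15514 transcripts) and were used only as a pooled mean.

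Log2 ratios of means used a pseudocount of 1 and transcripts with an average of at least 10, without a test. Counts per library were recovered as the only 3 whole numbers that give a printed mean, each library being within 50% of the mean above a mean of 60 (all combinations where none was found, up to 2000). Size factors recomputed from the recovered counts of the RNAi table differed from those of the steps by at most 0.055%. Recovery and fits were tested on simulated data. The simulated libraries spread less than those of PRR9 and PRR3 in amiNAA10 (coefficients of variation of 33.9% and 53.2%), so errors of the 50% limit at such spreads were not tested. Log2(normalized count + 1) was fitted by limma 3.58.1 with a mean trend in R 4.3.3, for 2 lines at a time. This test was chosen after the data were seen. The paper's methods call the 3 libraries of a line biological replicates of pooled seedlings, and p-values measure the spread between these pools. Molecular identifiers are not mentioned in the sources used here.

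The members and the lists of other genes were chosen with earlier results of these data known. All 10 members were named; of other lists, the 4 largest ratios at 2-fold per comparison; and 5 genes nearest to each profile. All 76 listed genes were matched to RefSeq. Alternatives were another fold threshold, minimum, pseudocount, scaling, joint fit and left-out libraries.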

Additional observations from a re-analysis of the deposited data

How the results depend on the processing

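No paired analysis was possible because the recovered libraries carry no replicate number. At a threshold of 1.5-fold in place of 2-fold, the members apart numbered 5 in amiNAA10 over Col-0 of the NAT tables, 7 in amiNAA10 and 6 in naa20 over Col-0 of the RNAi table, and 3 between the Col-0 references. The share of all transcripts at 1.5-fold was not computed, so no background stands beside the counts at this threshold. With a pseudocount of 10 the count in naa20 over Col-0 of the RNAi table was 1, and without scaling that between the Col-0 references was 2. Planned minimums of 50 or none kept the counts at 2-fold. With CCA1 and LHY against GI, TOC1, LUX and ELF4, the index differed from Col-0 of the RNAi table by -1.09 in amiNAA10 (-1.55 with all 10 genes), -0.37 in naa20 (-1.04) and -0.19 in the second Col-0 (-0.62), and in naa20 from that Col-0 by -0.18 (-0.42). The cause was not tested. With all 12 libraries in 1 fit, 0 members passed limma in doa10a/b RNAi 4-2 (1 at an unadjusted p under 0.05), where 455 of 15083 transcripts did. Leaving out 1 library gave 0 to 1 members past the test in the RNAi line, where 90 of 19919 to 593 of 19902 transcripts passed. Over Col-0 of the RNAi table it gave 6 to 7 in amiNAA10 (3406 of 15393 to 4756 of 15358 transcripts). In naa20 it gave 7 (2685 of 15698 to 4444 of 15677 transcripts). Between amiNAA10 and naa20 it gave 0 to 6 (5048 of 15061 to 5996 of 15052 transcripts). Recovery left out abundant transcripts of the NAT lines, so CCA1 and LHY could not be tested there.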
